A study of Mus musculus with 2 samples.

Results

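The genomic regions described here are the loci of 5 mouse genes that write or remove DNA methylation: Dnmt3a and Dnmt1, which encode DNA methyltransferases, and Tet1, Tet2 and Tet3, which encode methylcytosine dioxygenases. They were taken as fixed windows of the mm9 build: chr12:3800000-3920000 for Dnmt3a, chr9:20705000-20765000 for Dnmt1, chr10:62265000-62345000 for Tet1, chr3:133120000-133210000 for Tet2 and chr6:83310000-83405000 for Tet3. Each window was set against the 200 kb on each side of it, called its flanks. The windows held 3471 of the 27435342 cytosines listed for the library used, and the flanks held 16118. The windows are positions of genes, and the rule that sets them uses no methylation level.

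The data are whole-genome bisulfite reads of dentate gyrus, dissected from both sides of the brain of adult male C57Black6 wild-type mice, 8 to 10 weeks old. The study had 2 libraries, described as biological replicates of 1 untreated group. Windows were read in replicate 2, because replicate 1 listed 2 cytosines inside all 5 windows together. Bulk tissue was used, so a partial level can come from cells that differ or from alleles that differ, and bisulfite reads do not separate methylcytosine from hydroxymethylcytosine, the product of the TET enzymes.

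DNMT3A is a de novo methyltransferase. In neurons it is known for methylating cytosines outside CpG dinucleotides as well as CpG. DNMT1 copies CpG methylation onto the new strand after DNA replication. The TET enzymes oxidise methylcytosine to hydroxymethylcytosine, which is abundant in neurons, and to further products that base excision repair can replace with cytosine. Promoters in CpG islands are usually free of CpG methylation, while gene bodies are usually methylated at CpG.

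The RefSeq start-site windows of these genes (GRCm38 build, 250 bases before to 50 after an annotated start) differed widely in CpG. Over all 32851 mouse start-site windows the median number of CpG was 7, and 26.5% held 20 or more. Dnmt3a had 3 windows with 46, 47 and 18 CpG, and Dnmt1 had 3 with 2, 12 and 33. The single windows of Tet1, Tet2 and Tet3 had 17, 57 and 22. The 250 bases before the start are shown for the TET genes, a choice made after the methylation values were seen. Each CpG is in capitals, 5′ to 3′ on the gene's own strand:
Tet1: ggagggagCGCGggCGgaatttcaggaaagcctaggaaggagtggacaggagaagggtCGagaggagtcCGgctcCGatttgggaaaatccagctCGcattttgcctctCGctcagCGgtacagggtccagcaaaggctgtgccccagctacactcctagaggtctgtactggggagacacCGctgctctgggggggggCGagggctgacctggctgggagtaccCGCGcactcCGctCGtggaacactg
Tet2: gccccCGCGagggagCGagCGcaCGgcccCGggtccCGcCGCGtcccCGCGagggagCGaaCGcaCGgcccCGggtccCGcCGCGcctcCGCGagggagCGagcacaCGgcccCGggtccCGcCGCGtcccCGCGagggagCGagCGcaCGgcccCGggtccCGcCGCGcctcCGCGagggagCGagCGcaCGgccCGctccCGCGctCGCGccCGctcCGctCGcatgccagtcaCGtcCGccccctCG
Tet3: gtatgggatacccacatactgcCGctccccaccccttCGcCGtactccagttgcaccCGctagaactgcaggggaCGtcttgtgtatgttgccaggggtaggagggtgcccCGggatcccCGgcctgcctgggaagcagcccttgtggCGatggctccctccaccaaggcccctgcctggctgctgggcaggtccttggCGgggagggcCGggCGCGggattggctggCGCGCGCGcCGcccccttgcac
The Tet2 sequence holds 51 CpG, that of Tet3 17 and that of Tet1 15. These sequences come from another build than the methylation tables, so they were sought by their pattern of cytosines among the listed sites of each locus and its flanks. The best placement in which every listed site fell on a cytosine of its own context rested on 3 to 5 listed sites per window, of 80 to 139 cytosines on the strand read. No window could be placed, and no listed site is assigned here to a promoter, exon, intron or UTR.

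In replicate 2 the authors' tables list sites from 20 reads (CpG and CHG) or 30 reads (CHH), on 1 strand. H stands for any base but G. The 5 windows held 480 CpG, 2534 CHG and 457 CHH sites, with median depths of 22, 22 and 31 reads and at most 50 reads at any site. Each locus thus rested on 81 to 104 CpG, 369 to 655 CHG and 59 to 136 CHH sites. The Dnmt3a window was the most thinly listed. It had 99 CpG and 513 CHG sites in 120 kb, where autosomal tiles of that length had medians of 138 and 927. Dnmt1 had 81 CpG sites in 60 kb, against a tile median of 69, but fewer CHG and CHH sites than the tile medians, with 369 against 461 and 59 against 133.

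Most CpG reads were methylated in each of the 5 loci, and the level differed among them. Levels are methylated reads as a percent of all reads, with exact 95% Clopper-Pearson intervals that cover counting error only: copies made by PCR cannot be told from separate molecules here, and reads at neighbouring sites are not independent. Dnmt1 had the highest CpG level, 85.0% (83.3% to 86.6%). Tet1 followed at 82.5% (80.8% to 84.0%), with an interval that overlapped that of Dnmt1. Tet2 was at 75.6% (73.9% to 77.3%) and Dnmt3a at 73.5% (71.6% to 75.4%), again with overlapping intervals. Tet3 was lowest, at 62.9% (60.9% to 64.8%), and its interval overlapped with none of the others. The autosomal level at sites of at most 100 reads was 79.0%, so Dnmt1 and Tet1 lay above it and Tet2, Dnmt3a and Tet3 below.

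**Figure D1:**
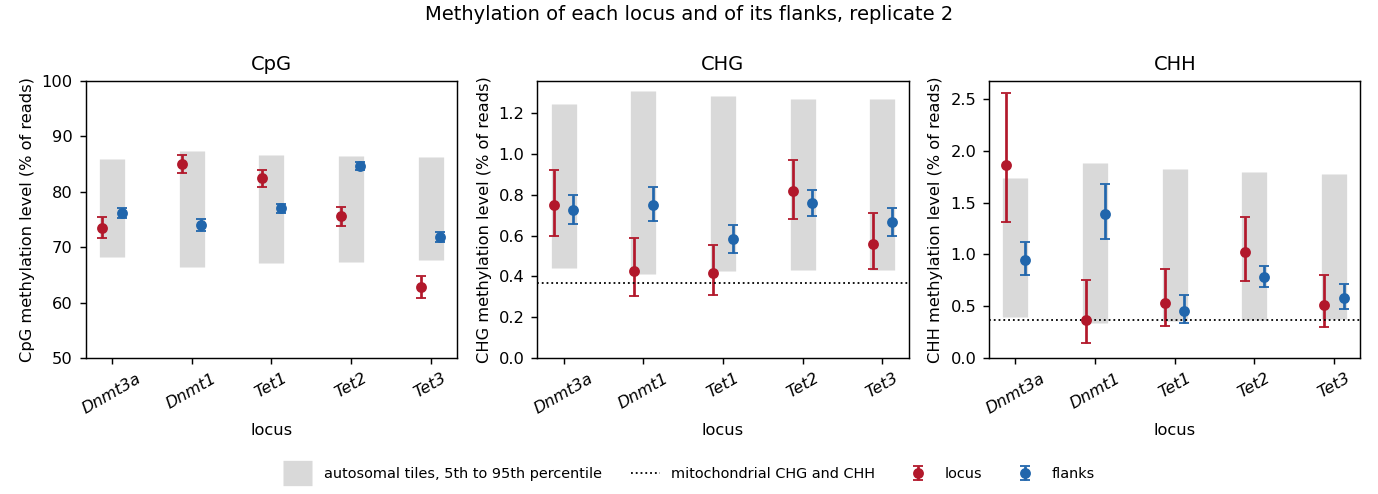
Methylation levels of CpG, CHG and CHH in each locus (red) and in its flanks (blue), as a percent of reads in replicate 2, with exact 95% intervals as bars. Grey bars span the 5th to 95th percentile of autosomal tiles of the same length, the CpG axis starts at 50%, and the dotted line is the mitochondrial CHG and CHH level of 0.368%. Tet3 lies below the grey bar for CpG, Tet1 just below it for CHG and Dnmt3a above it for CHH.

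Against their flanks the loci went both ways. With 1 library there is no test of a locus against its flanks. Differences are given in percentage points with 95% Newcombe counting intervals, beside the share of all autosomal tiles of the same length whose interval lay on the same side of 0. That share was large in every comparison.

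Of the methyltransferase loci, Dnmt1 was above its flanks and Dnmt3a slightly below. The gene Dnmt1 lies between the protein-coding genes Eif3g and S1pr2 in the RefSeq order of GRCm38. Its window was at 85.0% against 74.0% in the flanks, a difference of 11.0 points (9.06 to 12.8). In 39.1% of the 60 kb tiles the interval lay above 0, and 97.5% of all 60 kb tiles had a lower difference than Dnmt1. Both flanks were lower, at 75.9% on the side of Eif3g and 72.1% on the side of S1pr2. The window of Dnmt3a, a gene between Dtnb and Pomc, was at 73.5% against 76.1%, a difference of -2.59 points (-4.68 to -0.561). In 32.4% of the 120 kb tiles the interval lay below 0. Against the high-coordinate flank alone the difference was -0.945 points with an interval that included 0 (-3.21 to 1.28), and against 100 kb on each side it was -7.58 points.

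Among the TET loci, Tet1 was above its flanks, while Tet2 and Tet3 were below theirs. The window of Tet1, a gene between Ccar1 and Slc25a16, was at 82.5% against 77.0%, a difference of 5.47 points (3.65 to 7.21). Of the 80 kb tiles, 38.5% lay above their flanks in the same way. Against 100 kb on each side the difference was 2.62 points. The window of Tet2, a gene between Ppa2 and Cxxc4, was at 75.6% against 84.7%, a difference of -9.07 points (-10.9 to -7.30). The interval lay below 0 in 32.1% of the 90 kb tiles, and 5.61% of all 90 kb tiles had a lower difference. The flanks of Tet2 were the most methylated of the 5 sets, with 84.8% and 84.5% on its low and high coordinate sides. The window of Tet3, a gene between Bola3 and Dguok, was at 62.9% against 71.9%, a difference of -9.04 points (-11.2 to -6.91). The interval lay below 0 in 32.2% of the 95 kb tiles, and 5.15% of all 95 kb tiles had a lower difference. In level rather than difference, 2.10% of these tiles lay below Tet3.

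Single CpG sites showed how the levels arose. In Dnmt1, 61 of 81 sites were methylated in at least 80% of reads and 2 in at most 20%. In Tet1 these numbers were 74 and 6 of 99, in Tet2 61 and 7 of 104, and in Dnmt3a 56 and 6 of 99. In Tet3, 37 of 97 sites were at 80% or more, 14 were at 20% or less, and 46, or 47.4%, lay between. On all autosomes 66.6% of listed CpG sites were at 80% or more, 28.0% lay between and 5.4% were at 20% or less. The share of sites at 20% or less was 14.4% in Tet3, 6.73% in Tet2, 6.06% in Tet1 and Dnmt3a, and 2.47% in Dnmt1. In the flanks such sites made up 11.0% for Tet3, 10.3% for Tet1, 9.26% for Dnmt1, 6.01% for Dnmt3a and 1.98% for Tet2.

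**Figure D2:**
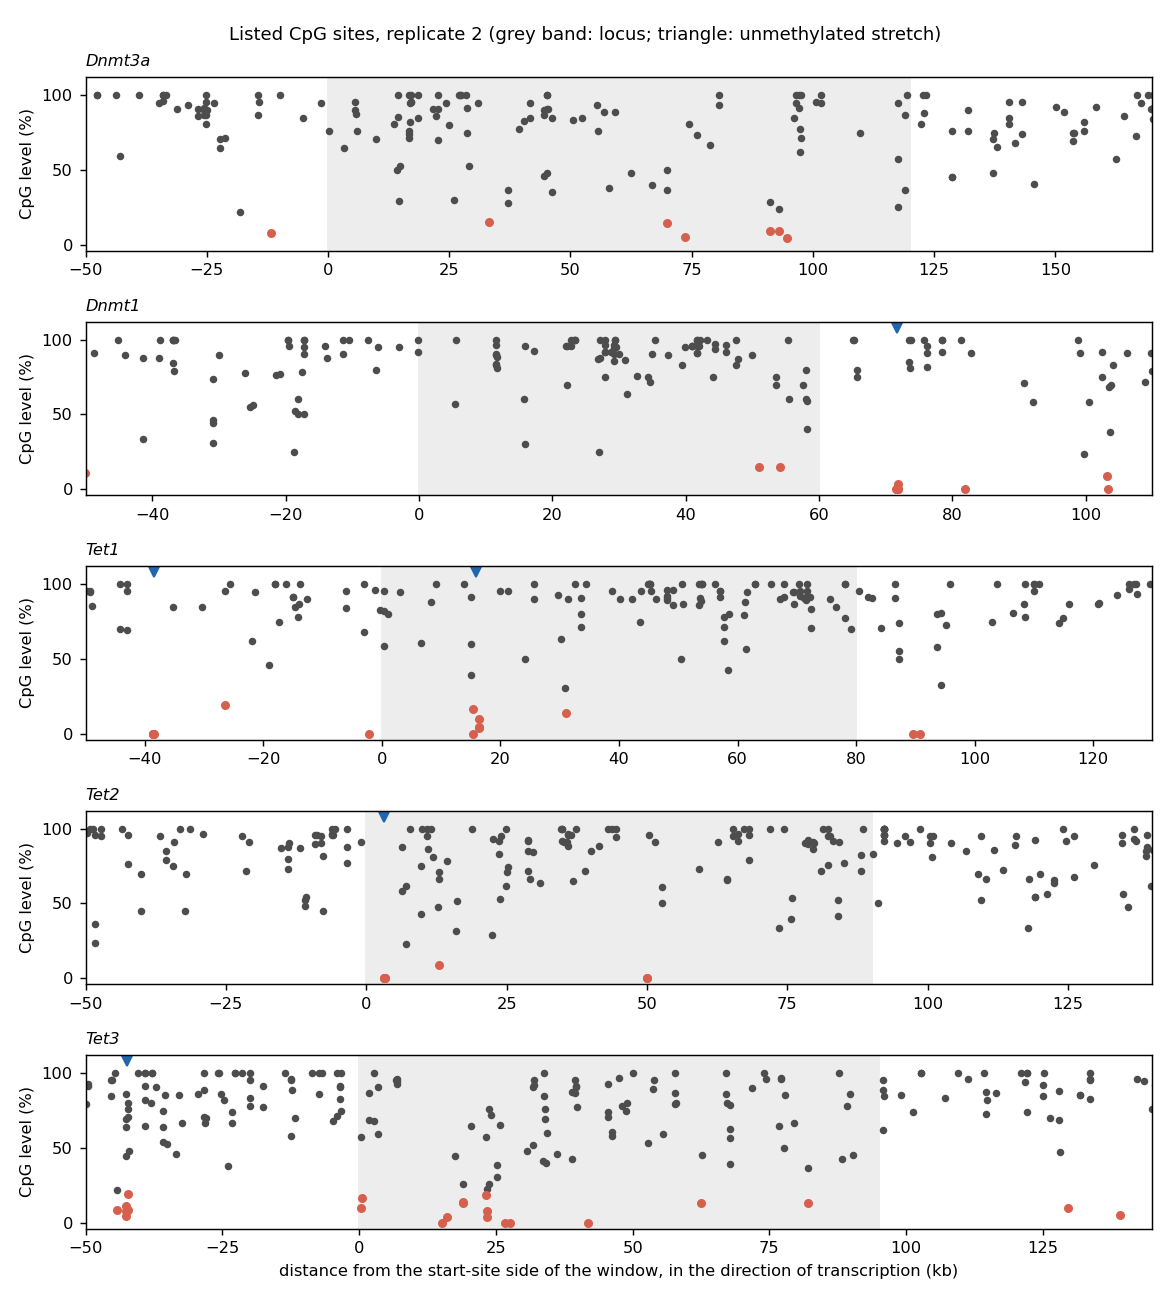
CpG methylation level (percent of reads) of each listed site in replicate 2, by distance in kb from the window edge on the start side of the gene, with 50 kb of flank on each side. The grey band is the locus, red points are sites at 20% or less, and blue triangles mark unmethylated stretches. Tet1 and Tet2 each hold 1 stretch in the band, and the red points of Tet3 gather between 10 and 30 kb.

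Unmethylated stretches were defined as at least 4 consecutive listed CpG sites, each at 20% or less, with neighbours at most 2000 bp apart. Such stretches held 1.8% of the listed CpG sites on autosomes. Within the loci, Tet1 and Tet2 had 1 each, with 5 of 99 and 4 of 104 CpG sites, and Dnmt3a, Dnmt1 and Tet3 had 0. The flanks of Dnmt3a held none, those of Tet2 held 1, those of Dnmt1 held 2, and those of Tet1 and Tet3 held 3 each. With so few listed sites, an unmethylated region at any of these genes can be missed.

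The Tet2 stretch was the cleaner one. It ran over 351 bp at chr3:133206584-133206934, between 3.07 and 3.42 kb inside the start side of the window. All 4 CpG sites were unmethylated, with 0 methylated of 27, 30, 20 and 22 reads, in all 0 of 99, which allows a level of up to 3.66%. Inside it, 2 of 154 CHG reads and 0 of 60 CHH reads were methylated. The nearest listed CpG sites on its sides were 2898 and 4057 bp away and were at 88% and 90.9%, so the ends of the unmethylated region lie somewhere in those gaps. Another pair of unmethylated CpG sites stood at 133160002 and 133160058, near 50 kb from the start side, with 0 of 21 and 0 of 25 reads, too few sites to count as a stretch.

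The Tet1 stretch spanned 1157 bp at chr10:62328545-62329701, between 15.3 and 16.5 kb inside the start side. Its 5 CpG sites were at 3.70%, 4.35%, 10%, 0% and 16.7%, with 8 methylated of 114 reads in all, or 7.02%. None of its 139 CHG reads was methylated, and no CHH site was listed there. On the start side methylation rose over 267 to 291 bp, to 60% at position 62329968 and 39.1% at 62329992. On the other side the next listed CpG, 3492 bp away, was at 95.2%. Positions 62328601 and 62329655 have no listed CpG between them, and with neighbours at most 1000 bp apart this stretch was not found.

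Tet3 had no stretch but a low part of about 20 kb. Its CpG level went from 73.2% in the first 10 kb on the start side to 17.6% (11.7% to 24.9%) between 10 and 20 kb and 34.3% (29.5% to 39.4%) between 20 and 30 kb, and was 72.8% between 30 and 40 kb. These 20 kb were picked out after the values were seen and are given as a description. They held 20 CpG sites with 152 methylated of 512 reads, or 29.7% (25.8% to 33.9%), against 72.2% (70.1% to 74.3%) at the other 77 CpG sites of the locus. Site levels there ranged from 0% to 76%, with 9 sites at 20% or less. Low and partly methylated sites alternated: 83381559 and 83381635 were at 4% and 8%, 83381710 and 83381718, only 8 bp apart, at 22.7% and 18.5%, and 83381890 at 57.1%. At the side nearest the start, 83389021 and 83389845 were at 4% and 0%, and at the far side 83378273 and 83377445 were both at 0%. Apart from these, CpG sites at 83404574 (10%) and 83404548 (16.7%) lay 0.426 and 0.452 kb inside the start side, and 83363237, 41.8 kb from the start side, had 0 of 26 methylated reads. Without the 20 kb, Tet3 minus its flanks was 0.319 points (-1.96 to 2.52) instead of -9.04. The 20 kb were chosen as low and nothing was taken from the flanks, so the difference had to shrink, and this value is a description only. CHG and CHH levels in the 20 kb were 0.621% (0.385% to 0.948%) and 0.283% (0.0772% to 0.724%), with intervals that overlapped those of the rest of the locus, 0.538% and 0.656%.

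**Figure D3:**
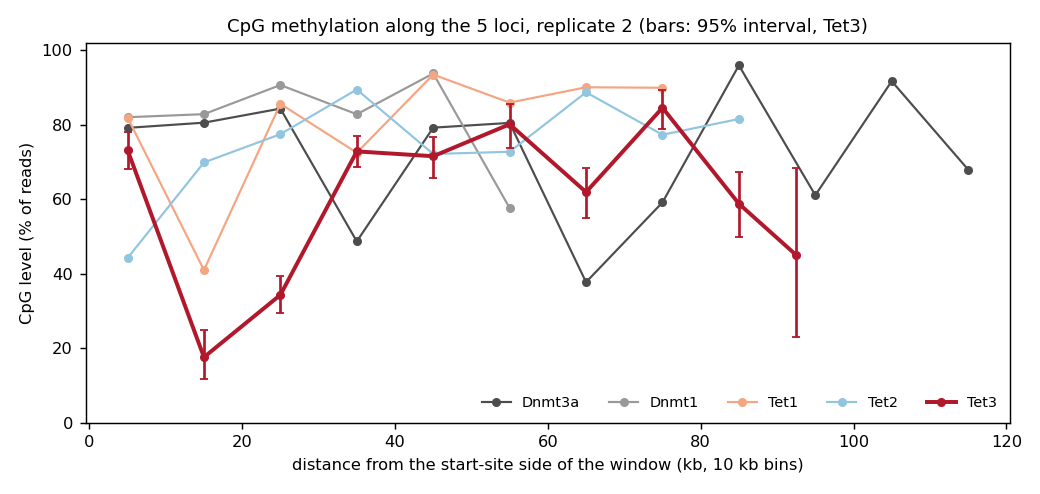
CpG level (percent of reads) in 10 kb bins along the 5 loci in replicate 2, by distance in kb from the start side of the window. Bars are exact 95% intervals for Tet3, whose last bin ends at 95 kb. Tet3 drops to 17.6% and 34.3% between 10 and 30 kb, Tet1 to 41.0% between 10 and 20 kb, and Tet2 to 44.2% in the 10 kb at the start side. Dnmt3a drops to 37.7% between 60 and 70 kb.

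Dnmt3a held no unmethylated stretch, and its 10 kb bins with at least 5 sites ran from 37.7% (60 to 70 kb) to 84.3% (20 to 30 kb). Of its 6 sites at 20% or less, 3 lay between 90 and 95 kb from the start side, at 3891048 (9.09%), 3893010 (9.09%) and 3894663 (4.76%). The other 2 listed CpG sites of that part, chosen after the values were seen, were at 28.6% and 23.8%, so all 5 were below 30%, with 16 methylated of 107 reads, or 15.0% (8.80% to 23.1%). In Dnmt1 the low sites were at 20710839 (15%) and 20713957 (14.8%), both in the last 10 kb of the window, where the CpG level was 57.6%. The other Dnmt1 bins were at 82% to 93.7%.

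CHG methylation was low in every locus, and in Dnmt1 and Tet1 it could not be told from failed conversion. The mitochondrial CHG and CHH level of the same library, taken as the rate of failed conversion, was 0.368%. CHG was at 0.428% (0.302% to 0.590%) in Dnmt1 and 0.419% (0.309% to 0.555%) in Tet1, and both intervals include that rate. In Tet3 it was 0.561% (0.435% to 0.712%), in Dnmt3a 0.748% (0.600% to 0.922%) and in Tet2 0.817% (0.681% to 0.972%), all above it. The intervals of these last loci overlapped one another. The autosomal CHG level was 0.784%.

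The low CHG level of Dnmt1 stood beside a higher level in its flanks. The flanks were at 0.750%, a difference of -0.322 points (-0.468 to -0.143). The interval lay below 0 in 18.8% of tiles of that length, and 5.26% had a lower difference. The flank on the side of Eif3g was at 0.921% and that on the side of S1pr2 at 0.563%. With the second alone, the difference was -0.135 points (-0.298 to 0.0513) and its interval included 0. Tet1 was 0.163 points below its flanks, which were at 0.582% (interval of the difference -0.288 to -0.0130), with 20% of tiles below 0 in the same way, and against the low-coordinate flank alone the interval included 0 (-0.241 to 0.0508). For Dnmt3a (0.0210 points), Tet2 (0.0583 points) and Tet3 (-0.103 points) the intervals included 0 and the sign changed under at least 1 other setting of flanks or sites, and 19.3%, 18.6% and 20.5% of their tiles lay past 0 in the same direction.

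CHH levels spread more widely, over few sites. Dnmt3a was highest at 1.86% (1.31% to 2.56%), from 63 sites with 37 methylated of 1989 reads. Its flanks were at 0.948%, a difference of 0.913 points (0.377 to 1.62). The interval lay above 0 in 20.5% of tiles, and 97.7% had a lower difference. A single cytosine, at 3863596, carried 12 of the 37 methylated reads. Without it, and without the most methylated CHH site of the flanks, the difference was 0.409 points and its interval included 0 (-0.0328 to 1.03). Dnmt1 was lowest at 0.364% (0.146% to 0.749%), with 7 methylated of 1923 reads over 59 sites, and its interval includes the mitochondrial level. A single called cytosine, at 20735664, carried 6 of these 7 methylated reads, and 57 of the 59 sites had none. The Dnmt1 flanks were at 1.39%, a difference of -1.03 points (-1.37 to -0.578), where 21.3% of tiles lay below 0 and 0.830% had a lower difference. Without that cytosine, and without the most methylated CHH site of the flanks, the difference was -1.12 points (-1.38 to -0.793). Both Dnmt1 flanks were higher, at 1.72% and 1.12%. Tet2 was at 1.02%, Tet1 at 0.533% and Tet3 at 0.508%, and their differences from the flanks (0.235, 0.0750 and -0.0757 points) had intervals that included 0. For Tet2 the interval lay just above 0 against the low-coordinate flank alone (0.299 points, 0.00372 to 0.665) and against 100 kb on each side (0.319 points, 0.00271 to 0.694). For Tet1 and Tet3 the sign changed under other settings. The intervals of the Tet1 and Tet3 levels (0.305% to 0.864% and 0.301% to 0.801%) include the mitochondrial level. Of the tiles of these loci, in the same order, 19.9%, 19.4% and 22.8% lay past 0 in the same direction. In Dnmt1 the higher CpG level thus stood beside lower CHG and CHH levels than in the flanks.

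CpG levels differed between the parts of a locus on either side of the window's midpoint. For CHG the intervals of these differences included 0 in all 5 loci. They were wide beside the levels, as in Dnmt3a (-0.227 to 0.420 points, at a level of 0.748%). Autosomal tiles were not split in this way, so how common such differences are was not tested. Against flanks, the CpG interval excluded 0 in 70.1% to 70.5% of tiles. The start-side part of Tet1 had a CpG level of 67.2% and the far-side part 89.7%, a difference of -22.5 points (-26.3 to -18.8), and the stretch lies in the former. Tet3 had 57.1% and 72.9% (-15.8 points, -19.6 to -11.8). Dnmt3a went the other way, with 78.4% and 64.4% (interval of the difference 10.1 to 18.1 points). Dnmt1 and Tet2 differed less between the parts, by 5.80 and -3.64 points. In CHH, the intervals of the difference included 0 for Dnmt1 and Tet2. Dnmt3a had 0.914% in its start-side part and 3.70% in its far-side part, which holds the cytosine with 12 methylated reads. Tet3 had 0.357% and 1.08%, the second from 23 CHH sites, where 1 called cytosine, at 83352135, carried 4 methylated reads. Tet1 had 1.60% in its start-side part and 0.287% in its far-side part. Only 18 CHH sites stood behind the first of these values, and 7 of their methylated reads came from 1 cytosine, at 62343553.

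Methylation of single CHG and CHH cytosines was called with an exact binomial test, one-sided, against the mitochondrial rate, with Benjamini-Hochberg adjustment over all nuclear sites of the context and a threshold of 0.01. Of all nuclear CHG and CHH sites of at most 100 reads, 1.46% and 2.75% were called. In the loci 28 CHG and 10 CHH sites were called. For CHG these were 11 of 655 in Tet2 (1.68%), 9 of 513 in Dnmt3a (1.75%), 5 of 499 in Tet3 (1.0%), 2 of 498 in Tet1 (0.402%) and 1 of 369 in Dnmt1 (0.271%). The exact 95% intervals of these shares were 0.841% to 2.98%, 0.805% to 3.30%, 0.326% to 2.32%, 0.0487% to 1.44% and 0.00686% to 1.5%, so the shares of Tet2, Dnmt3a and Tet3 were near the background, that of Dnmt1 was lower with an interval that includes it, and the interval of Tet1 ended just under it. For CHH the calls were 4 of 63 in Dnmt3a, 3 of 136 in Tet2 and 1 each in Dnmt1, Tet1 and Tet3, and each interval includes 2.75%. A call needed at least 3 methylated reads, so at these depths levels under 10% at 1 site were mostly not detectable.

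The highest single levels inside the loci were in Dnmt3a. Sites in the flanks reached similar or higher levels, with 58.1% (18 of 31 reads) at the CHH cytosine 20591406 beside Dnmt1 and 40% (12 of 30) at the CHH cytosine 3737358 beside Dnmt3a. Its CHG cytosine at 3805522, 5.52 kb inside the start side, was methylated in 10 of 21 reads, or 47.6% (adjusted p = 6.0e-16 by the exact binomial test). Its CHH cytosine at 3863596 was methylated in 12 of 31 reads, or 38.7% (adjusted p = 7.4e-19 by the same exact test). The next Dnmt3a sites were the CHG cytosines at 3802264 (20%) and 3800153 (18.2%) and the CHH cytosines at 3880552 (18.8%) and 3855540 (12.9%). The first 10 kb of the Dnmt3a window had a CHG level of 2.25%, the highest of its 12 bins, and 3 called sites there carried 10, 4 and 4 of its 25 methylated reads.

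**Figure D4:**
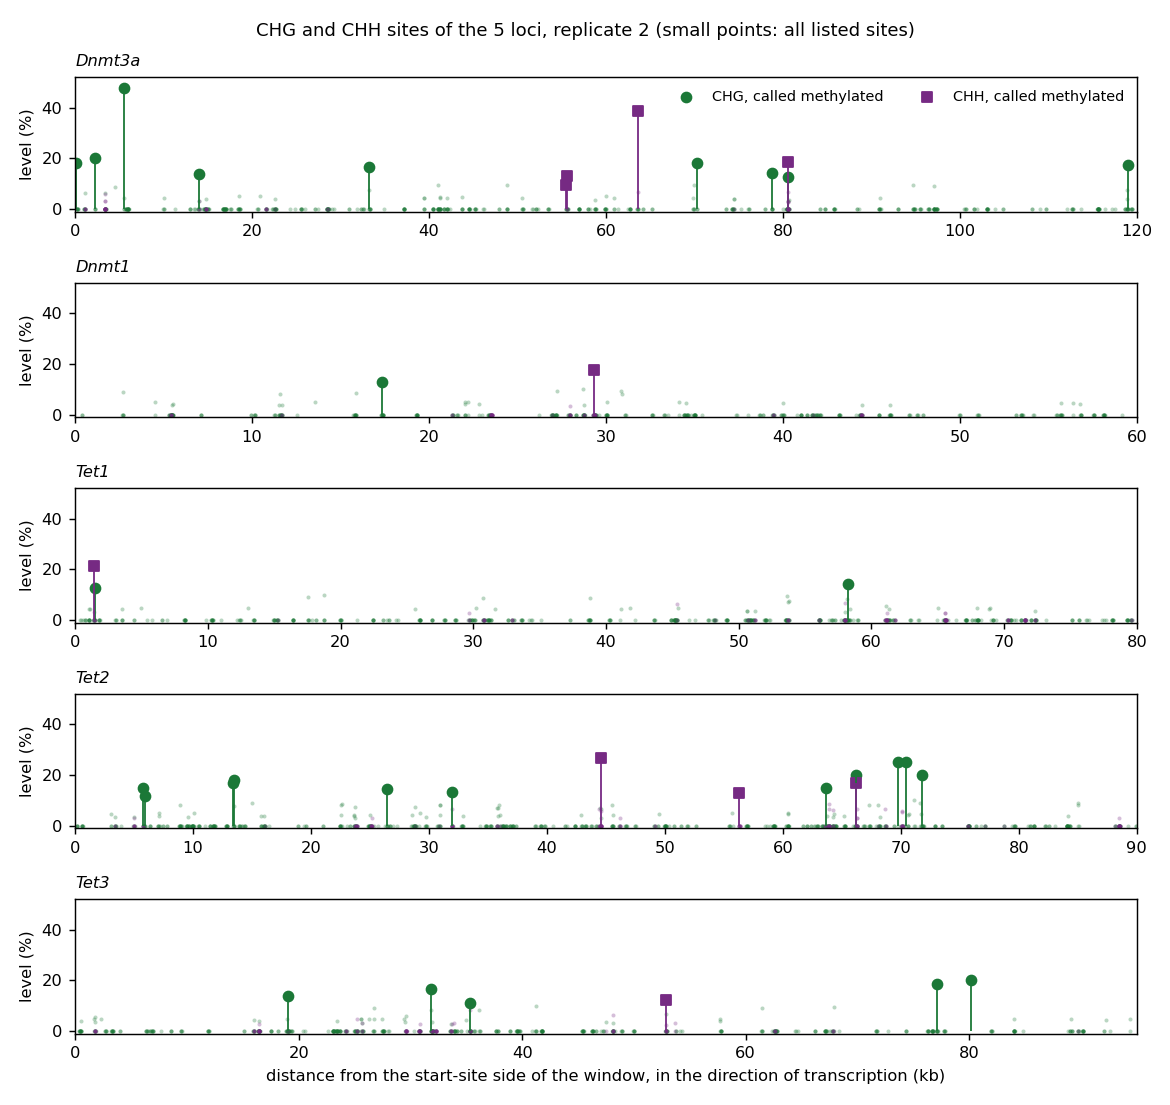
CHG (green) and CHH (purple) methylation levels in percent of reads along the 5 loci in replicate 2, by distance in kb from the start side of the window. Large symbols with stems are sites called methylated and small points are all listed sites, most of them at 0. Dnmt3a holds the 2 highest sites, at 47.6% and 38.7%, and Dnmt1 has 2 calls.

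In Tet2 the CHG cytosines with the highest levels were 133139590 and 133140274, each methylated in 5 of 20 reads, and 133143776, in 6 of 30 reads. These lay 66.2 to 70.4 kb from the start side, far from the unmethylated stretch, while the nearest call to it was a CHG cytosine at 133204225, 5.78 kb from the start side (14.8%, chosen after its value was seen). The CHH cytosine at 133165389 was methylated in 8 of 30 reads (26.7%), that at 133143830 in 5 of 30 and that at 133153700 in 4 of 31. In Tet1 the called sites were the CHH cytosine at 62343553 (21.2%) with a CHG cytosine 17 bp away at 62343536 (12.5%), both about 1.46 kb inside the start side, and a CHG cytosine at 62286732 (14.3%). In Tet3 the highest CHG cytosines were 83324844 (20%), 83327863 (18.8%) and 83373144 (16.7%), and the CHH call was at 83352135 (12.5%). Dnmt1 had 1 CHG call at 20747663 (13.0%) and 1 CHH call at 20735664 (17.6%).

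Of the 38 called cytosines, 10 had another called cytosine within 100 bp, as at 3880549 and 3880552 in Dnmt3a, 3 bp apart. The same share among all called sites of the library was not counted, so whether this is usual is not known. Nearby cytosines can be covered by the same reads, so such pairs are not independent. Uncalled CHG and CHH cytosines within 100 bp of a call were at 0.573% (0.419% to 0.767%), over 285 sites, against 0.405% (0.357% to 0.456%) at the other 2668 uncalled sites of the loci. At the Dnmt3a CHG cytosine with 10 methylated reads, the 3 other listed CHG and CHH sites within 100 bp had 1 methylated read of 67. At the Dnmt1 CHH cytosine the 24 such sites had 0 of 710, while at the Tet2 CHH cytosine at 133165389 the 14 such sites had 5 of 460. These examples were chosen after their values were seen. Whether single reads failed to convert as a whole was not tested. The nearest listed CpG to that Dnmt3a site was 27 bp away and at 95.5%. Calls also occurred beside weakly methylated CpG: the Dnmt3a CHG cytosine at 3833266 (16.7%, chosen after its value was seen) was 32 bp from the CpG at 3833234 (15%).

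Replicate 1 could not repeat any of these values. It listed 1 CHG and 1 CHH cytosine inside the Dnmt3a window, with 0 of 21 and 0 of 22 reads methylated, no cytosine inside the other windows, and no CpG inside any. All values above therefore come from 1 library, and their intervals hold no variation between animals.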

How the data were processed

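Per the labels' protocols, genomic DNA of dissected dentate gyrus was mixed with unmethylated lambda DNA, bisulfite converted, amplified and sequenced. Bismark 0.7.5 and the mm9 build are named in the submitters' processing notes. How reads were trimmed or duplicates removed is not given in the sources used here. For each library and context the deposited tables hold, per cytosine of 1 strand class, read counts (total, methylated, unmethylated). The deposited percent of methylated reads was recomputed from the counts.

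Sites of at most 100 reads were used, and no site of the loci or flanks was deeper. Levels are read-weighted. Tiles are consecutive autosomal windows of a locus's length. For levels and differences they had at least 50 CpG, 200 CHG or 30 CHH sites in the tile and in its flanks. The tile medians of listed sites were taken over all tiles without this minimum, sparse and empty ones included. RefSeq tables of GRCm38 gave gene strands, neighbours and start-site sequences, and none of their coordinates was compared with mm9. Other genes of the pathway were not analysed here, for want of mm9 positions. Sites named among the calls are the 3 with the highest level per locus and context, beside the pairs and neighbours given. The members, lists and alternatives were chosen with earlier results of these data known. Binomial calls, stretches and intervals were tested on simulated data with independent reads and mostly evenly spaced CpG sites. Dependence between reads and the uneven spacing of listed sites were not covered. Computation used Python 3.11.15, numpy 2.4.6, pandas 2.3.3, scipy 1.17.1 and matplotlib 3.10.9.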

Additional observations from a re-analysis of the deposited data

How the results depend on the processing

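Differences below are locus minus flanks in percentage points. With sites of at least 30 reads, few sites were left (2 to 7 CpG and 19 to 50 CHG sites per locus). The sign reversed for CpG in Dnmt3a, at 3.66 (-8.42 to 12.5), and for CHG in Tet1, at 0.351 (-0.187 to 1.30). Both of these intervals included 0. CpG gave 1.43 for Dnmt1, 30.2 for Tet1 and -5.18 for Tet3. CHG gave 1.23 for Dnmt3a, -0.812 for Dnmt1 and 0.264 for Tet2. The intervals for CpG in Dnmt1 and Tet3 and for CHG in Tet2 also included 0. With flanks of 100 kb, CpG gave -7.58 for Dnmt3a, 13.8 for Dnmt1, 2.62 for Tet1 and -12.0 for Tet3, and CHG gave -0.103 for Tet2. Without unmethylated stretches, CpG gave 8.82 for Dnmt1, -6.57 for Tet2 and -12.3 for Tet3. The windows of Dnmt1 and Tet3 held no stretch, so only low sites of their flanks were removed and their differences had to fall. With the high side flank only, Dnmt1 was at 12.9 for CpG and -0.135 for CHG, and with the low side only at -0.493 for CHG. Without its part of 10 to 30 kb, Tet3 reversed in sign to 0.319 for CpG, with an interval that included 0 (-1.96 to 2.52). The single-flank and Tet3 alternatives, and leaving out the most methylated site, were chosen after seeing the data. Every other difference between locus and flanks stayed within its counting interval under these alternatives, also with site means. Lifting the upper limit on depth could change no value, because no site of the loci or flanks was deeper than 100 reads. Differences whose interval included 0 did change sign: CHG for Dnmt3a (-0.0104 with site means), Tet2 (-0.0142 with the high side flank) and Tet3 (0.0260 with 100 kb flanks), and CHH for Tet1 (-0.0264 with 100 kb flanks) and Tet3 (0.124 with the low side flank). With neighbouring sites at most 1000 bp apart, Tet1 had 0 stretches. At a background rate of 1%, CHG calls numbered 4 in Dnmt3a, 0 in Dnmt1, 0 in Tet1, 5 in Tet2 and 2 in Tet3, and CHH calls 2 in Dnmt3a and 0 in Tet3. From 30 reads, CHG calls numbered 1, 0, 1, 2 and 1 in Dnmt3a, Dnmt1, Tet1, Tet2 and Tet3. Without replicate 2, the CHG and CHH levels of Dnmt3a were 0%, each from 1 site. Beyond the fewer sites or flanks used, the cause was not tested. No paired analysis was possible because all samples belong to 1 group.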
